A study of Mus musculus with 12 samples.

Results

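Ribosome biogenesis and nucleolar genes were followed in C790 cells, a mouse melanoma line with mutant Nras, with and without induced reprogramming factors and with and without the MEK inhibitor trametinib. The set holds 41 genes, among them Fbl, Ncl, Npm1, Dkc1, Gnl3 and the RNA polymerase I subunits Polr1a and Polr1b. A gene entered through the probe sets annotated to it alone, and where it had several, the brightest of them on average stood for it. All 41 genes had such a probe set, out of 18193 genes measured in this way.

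The 12 Affymetrix mouse genome arrays made up 4 groups of 3 at day 20: +dox cells with trametinib, +dox cells with DMSO, -dox cells with trametinib and -dox cells with DMSO, with 72 h of drug or vehicle. All cells carried a doxycycline-inducible lentivirus for Oct4, Sox2 and Klf4 with a blasticidin resistance gene, and the transactivator vector M2rtTA-mCherry. The +dox cells received doxycycline and blasticidin and are described by the study as partially reprogrammed, while the -dox cells received no doxycycline. The cells are 1 line, and no source says whether the 3 arrays of a group came from separate cultures, so p-values measure the spread between these arrays only, which may be technical.

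Ribosomes are made in the nucleolus, where RNA polymerase I transcribes the ribosomal RNA precursor, small nucleolar ribonucleoproteins (snoRNPs) modify it, and large sets of assembly factors fold and cut it into the small and the large subunit. Growth signals through the RAS and ERK pathway and through the transcription factor MYC are known to raise the output of this machinery, and enlarged nucleoli are a long-known feature of tumour cells. MYC binds DNA with its partner MAX at E-boxes, of which CACGTG is the best known form.

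Expression values are log2 intensities per probe set, so that a difference of 1 is a doubling of intensity, and values of different genes are not compared here. The level at which probe sets carry no signal was set at 4.87, the 95th percentile of 84 probe sets for olfactory, vomeronasal and taste receptors. No member had a group mean below it, and a single member value was lower, Rrp12 in +dox trametinib replicate 3 at 4.84. Of 10 melanocyte markers, Mitf, Pmel and Sox10 were above this level in every group, while Tyr, Tyrp1, Dct and Mlana were below it in all 4. Of the vector genes, Pou5f1 (Oct4) was 0.82 ± 0.16 (SE) higher in +dox than in -dox cells under DMSO (limma, adjusted p = 0.016), Sox2 had a difference of −1.53 ± 0.48 (adjusted p = 0.091) and Klf4 of −0.15 ± 0.24 (adjusted p = 0.80). Whether these probe sets lie in the part that the vector carries was not tested. The -dox DMSO replicate 1 stood apart from its group, with a root mean square deviation of 0.532 from the other 2 arrays over all genes, against 0.235 to 0.419 for the other 11 arrays.

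The mean over the 41 genes was low on all 6 trametinib arrays and high on all 6 DMSO arrays. It was 8.67, 8.86 and 8.55 in +dox trametinib cells, against 9.59, 10.01 and 9.86 in +dox DMSO cells. In -dox trametinib cells it was 8.78, 8.78 and 8.61, against 9.30, 9.31 and 9.33 in -dox DMSO cells. The +dox DMSO arrays lay above the -dox DMSO arrays without overlap, whereas the +dox trametinib and -dox trametinib arrays overlapped. RNA of bulk cells was measured and RMA gives all arrays a common distribution, so fewer cells with a given level, less RNA per cell and a shift of total RNA cannot be told apart. The heat map of the 41 genes on 12 arrays shows this order gene by gene.

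**Figure D1:**
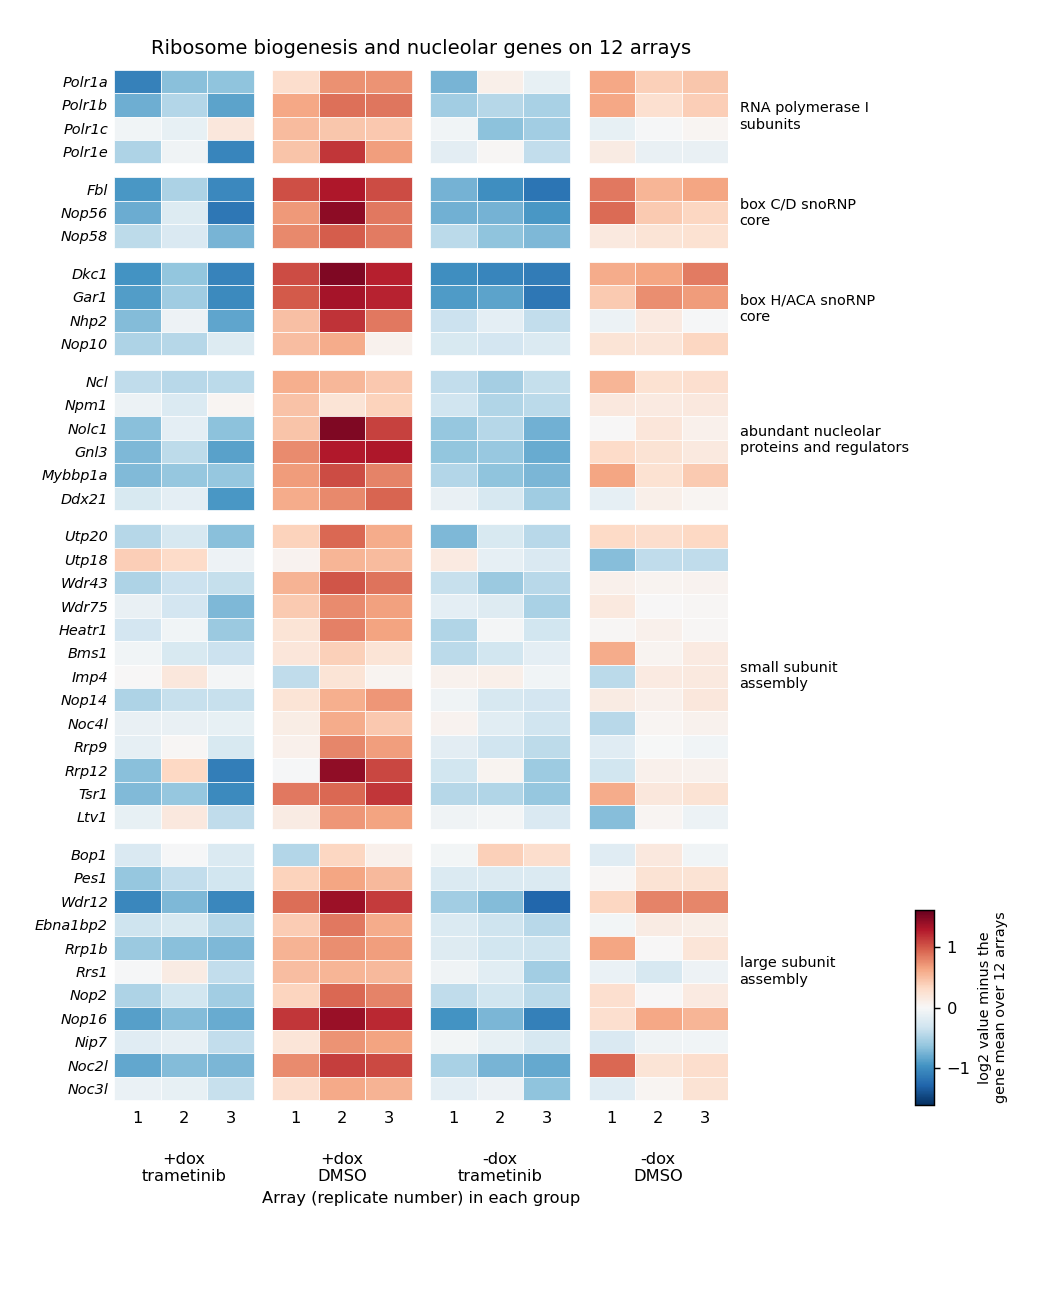
Log2 value of each of the 41 genes (rows, ordered by role) on each of the 12 arrays (columns, 3 per group), minus the mean of that gene over the 12 arrays; red is above the gene mean and blue below. The 3 +dox DMSO columns are the reddest, and both trametinib groups are mostly blue, with Imp4, Bop1 and Utp18 as rows that do not follow.

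In +dox cells, trametinib lowered most of the program. Of the 41 genes, 37 fell and 0 rose at an adjusted p under 0.05 (limma, Benjamini-Hochberg over 18193 genes), where 12.5% of all genes fell and 13.8% rose. With a fold over 2 as well, 22 of the 41 genes fell, against 4.9% of all genes. The median log2 change was −1.14 over the members and 0.023 over all genes. In 36 of the 41 genes all 3 +dox trametinib arrays were below all 3 +dox DMSO arrays, as in 18.6% of all genes.

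In -dox cells the fall covered fewer members and was smaller. Here 24 of the 41 genes fell and 0 rose, where 10.8% of all genes fell and 11.6% rose. A fold over 2 was reached by 8 of them, against 4.48% of all genes. The median was −0.52 over the members and 0.06 over all genes, and 28 genes had no overlap between the -dox trametinib arrays and the higher -dox DMSO arrays, as in 15.2% of all genes. Without -dox DMSO replicate 1, 21 of the 41 genes fell in -dox cells and 38 in +dox cells.

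Promoter sequences are shown for 6 of the members, with CACGTG, the best known site of MYC, marked. Myc RNA also fell with trametinib (its values are given further on), and whether MYC acts on the members was not tested. RefSeq promoter windows (GRCm38.p6, 250 bases before to 50 after an annotated start) were at hand for 36 of the 41 members. The motif CACGTG, which reads the same on both strands, was found in 9 of the 36 genes (25.0%), in 8.09% of the 27025 genes of the promoter table and in 10.2% of the array genes with a window. Tsr1, Mybbp1a, Utp20 and Wdr43 are shown as members that hold it and fell in both cell populations, and Dkc1 and Gar1 as members with large falls and without it. Their windows are chr11:74897830-74898129 (Tsr1, plus strand), chr11:72441077-72441376 (Mybbp1a, plus strand), chr10:88826765-88827064 (Utp20, minus strand), chr17:71615965-71616264 (Wdr43, plus strand), chrX:75095604-75095903 (Dkc1, plus strand) and chr3:129831347-129831646 (Gar1, minus strand). Each is written 5′ to 3′ on the strand of the gene, and capitals mark CACGTG.
Tsr1: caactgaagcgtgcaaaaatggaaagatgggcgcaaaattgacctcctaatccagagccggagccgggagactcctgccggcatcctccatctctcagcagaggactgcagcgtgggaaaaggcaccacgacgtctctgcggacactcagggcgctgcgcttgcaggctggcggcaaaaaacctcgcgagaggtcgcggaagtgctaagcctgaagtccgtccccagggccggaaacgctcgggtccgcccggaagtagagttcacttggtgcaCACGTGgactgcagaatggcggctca
Mybbp1a: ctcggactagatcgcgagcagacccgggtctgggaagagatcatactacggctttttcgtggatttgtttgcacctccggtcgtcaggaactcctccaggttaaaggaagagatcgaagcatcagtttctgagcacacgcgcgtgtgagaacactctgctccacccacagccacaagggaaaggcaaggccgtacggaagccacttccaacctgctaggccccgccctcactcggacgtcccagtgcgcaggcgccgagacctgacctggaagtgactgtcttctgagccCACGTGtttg
Utp20: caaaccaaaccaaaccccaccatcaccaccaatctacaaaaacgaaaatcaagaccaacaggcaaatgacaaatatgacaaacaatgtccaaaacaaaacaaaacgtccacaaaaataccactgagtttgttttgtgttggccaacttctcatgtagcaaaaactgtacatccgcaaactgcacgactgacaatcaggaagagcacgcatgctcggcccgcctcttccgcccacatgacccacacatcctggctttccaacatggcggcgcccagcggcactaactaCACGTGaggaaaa
Wdr43: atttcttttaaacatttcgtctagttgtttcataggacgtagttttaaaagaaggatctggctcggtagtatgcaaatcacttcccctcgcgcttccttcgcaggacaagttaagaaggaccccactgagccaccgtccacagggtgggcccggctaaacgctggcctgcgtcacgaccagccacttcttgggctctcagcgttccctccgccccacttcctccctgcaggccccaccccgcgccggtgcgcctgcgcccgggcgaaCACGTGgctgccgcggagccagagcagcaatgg
Dkc1: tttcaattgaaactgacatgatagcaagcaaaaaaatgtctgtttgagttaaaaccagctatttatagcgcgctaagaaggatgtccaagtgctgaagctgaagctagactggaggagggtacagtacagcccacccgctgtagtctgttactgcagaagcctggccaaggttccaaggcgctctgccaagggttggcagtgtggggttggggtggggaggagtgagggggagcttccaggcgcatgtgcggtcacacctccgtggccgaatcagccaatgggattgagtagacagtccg
Gar1: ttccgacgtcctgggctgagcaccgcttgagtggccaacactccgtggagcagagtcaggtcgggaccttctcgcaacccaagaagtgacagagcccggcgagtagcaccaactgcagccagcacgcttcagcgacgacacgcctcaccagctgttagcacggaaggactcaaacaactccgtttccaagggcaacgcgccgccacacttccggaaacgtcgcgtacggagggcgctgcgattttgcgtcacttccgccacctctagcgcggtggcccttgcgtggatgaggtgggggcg

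In Tsr1, Mybbp1a, Utp20 and Wdr43 the motif began 25, 41, 38 and 18 bases into the annotated transcript, counting its first base as 1. The other 5 members with it were Pes1, Ltv1, Utp18, Nop2 and Imp4. The 9 members with the motif had a median change under trametinib of −1.09 in the +dox and −0.52 in the -dox population, and the 27 without it of −1.30 and −0.55. Of the 9, 6 fell in +dox cells, whereas Utp18, Imp4 and Ltv1, all of them holding the motif, did not pass the test, and all 27 members without it fell. The ETS-type motif CCGGAAG, searched on both strands, was in 15 of the 36 genes (41.7%) against 15.0% of the array genes, and CTCGCGA in 5 (13.9%) against 3.45%. Related lists held these motifs too. CCGGAAG was in 44.1% of other small subunit factors, 50% of other large subunit factors, 54.5% of other RNA polymerase I genes and 48.7% of cytosolic ribosomal protein genes with a window. CACGTG was in 20.6% of each of these lists of small and large subunit factors and in 10.3% of the ribosomal protein genes. CTCGCGA was in 30.8% of the ribosomal protein genes, 5.88% of the large subunit factors and 0 of the small subunit factors. A match describes the letters in the window and not a binding site.

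The 4 RNA polymerase I subunits all fell in +dox cells, with a median of −1.34, and Polr1a and Polr1b fell in -dox cells too. Polr1a, the largest subunit, had values of 7.48, 7.89 and 7.91 in +dox trametinib cells, against 8.84, 9.29 and 9.28 in +dox DMSO cells. In -dox trametinib cells Polr1a was 7.81, 8.65 and 8.42, against 9.18, 8.94 and 9.0 in -dox DMSO cells. The trametinib arrays were below the DMSO arrays in both populations, with changes of −1.38 ± 0.21 (SE, adjusted p = 0.00069) in +dox and −0.75 ± 0.21 (adjusted p = 0.026) in -dox cells.

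Polr1b, which forms the active centre together with Polr1a, gave 6.23, 6.54 and 6.16 in +dox trametinib cells and 7.63, 7.89 and 7.87 in +dox DMSO cells. In -dox cells Polr1b was 6.46, 6.55 and 6.49 under trametinib and 7.63, 7.27 and 7.41 under DMSO. The changes were −1.49 ± 0.13 (adjusted p = 2.5e-05) and −0.94 ± 0.13 (adjusted p = 0.00053), and no arrays overlapped. Polr1c, a subunit that RNA polymerases I and III share, fell by 0.46 in +dox cells, and Polr1e by 1.30. In -dox cells neither passed the test (Polr1c −0.39, adjusted p = 0.087, and Polr1e −0.14, adjusted p = 0.72).

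The snoRNP core proteins held 3 of the 5 largest falls of the 41 genes in +dox cells. These particles carry guide RNAs: those of box C/D direct ribose methylation by Fbl (fibrillarin), and those of box H/ACA direct pseudouridine formation by Dkc1 (dyskerin). All 7 genes fell in +dox cells and 6 of them in -dox cells. The medians were −1.71 and −1.38 for box C/D and −1.68 and −1.05 for box H/ACA, in +dox and -dox cells.

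Fbl was at 9.83, 10.26 and 9.73 in +dox trametinib cells, against 11.79, 12.06 and 11.81 in +dox DMSO cells. Fbl in -dox cells was 10.01, 9.77 and 9.59 with trametinib and 11.61, 11.31 and 11.39 with DMSO. Fbl was 3.86-fold lower with trametinib in +dox cells (adjusted p = 1.8e-05) and 3.13-fold lower in -dox cells (adjusted p = 7.7e-05), with more than 1 log2 unit between the closest arrays.

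Nop56, a scaffold protein of the box C/D particle, was at 8.88, 9.45 and 8.51 in +dox trametinib cells and at 10.36, 11.10 and 10.52 in +dox DMSO cells. It was 8.90, 8.91 and 8.74 in -dox trametinib cells and 10.58, 10.09 and 10.01 in -dox DMSO cells. The falls of 1.71 ± 0.25 and 1.38 ± 0.25 on the log2 scale had adjusted p = 0.00051 and 0.0025. Its partner Nop58 changed by −1.33 and −0.81.

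Dkc1 had the largest fall of the 41 genes in both populations. Its values were 8.57, 8.89 and 8.45 in +dox trametinib cells, against 10.56, 11.01 and 10.77 in +dox DMSO cells. In -dox cells they were 8.53, 8.46 and 8.40 under trametinib, against 10.11, 10.15 and 10.35 under DMSO. Dkc1 was 4.42-fold lower with trametinib in +dox cells (adjusted p = 7e-06) and 3.34-fold lower in -dox cells (adjusted p = 2.9e-05).

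Gar1, a box H/ACA protein that binds Dkc1, was 8.62, 8.95 and 8.50 in +dox trametinib cells and 10.49, 10.84 and 10.74 in +dox DMSO cells. In -dox cells Gar1 was 8.61, 8.66 and 8.36 with trametinib and 9.93, 10.26 and 10.2 with DMSO. It was 4.0-fold lower in +dox (adjusted p = 1.2e-05) and 3.00-fold lower in -dox cells (adjusted p = 6.6e-05), again without overlap. Nhp2 fell by 1.36 in +dox cells and had a change of −0.31 in -dox cells (adjusted p = 0.32), and Nop10 changed by −0.77 and −0.52.

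**Figure D2:**
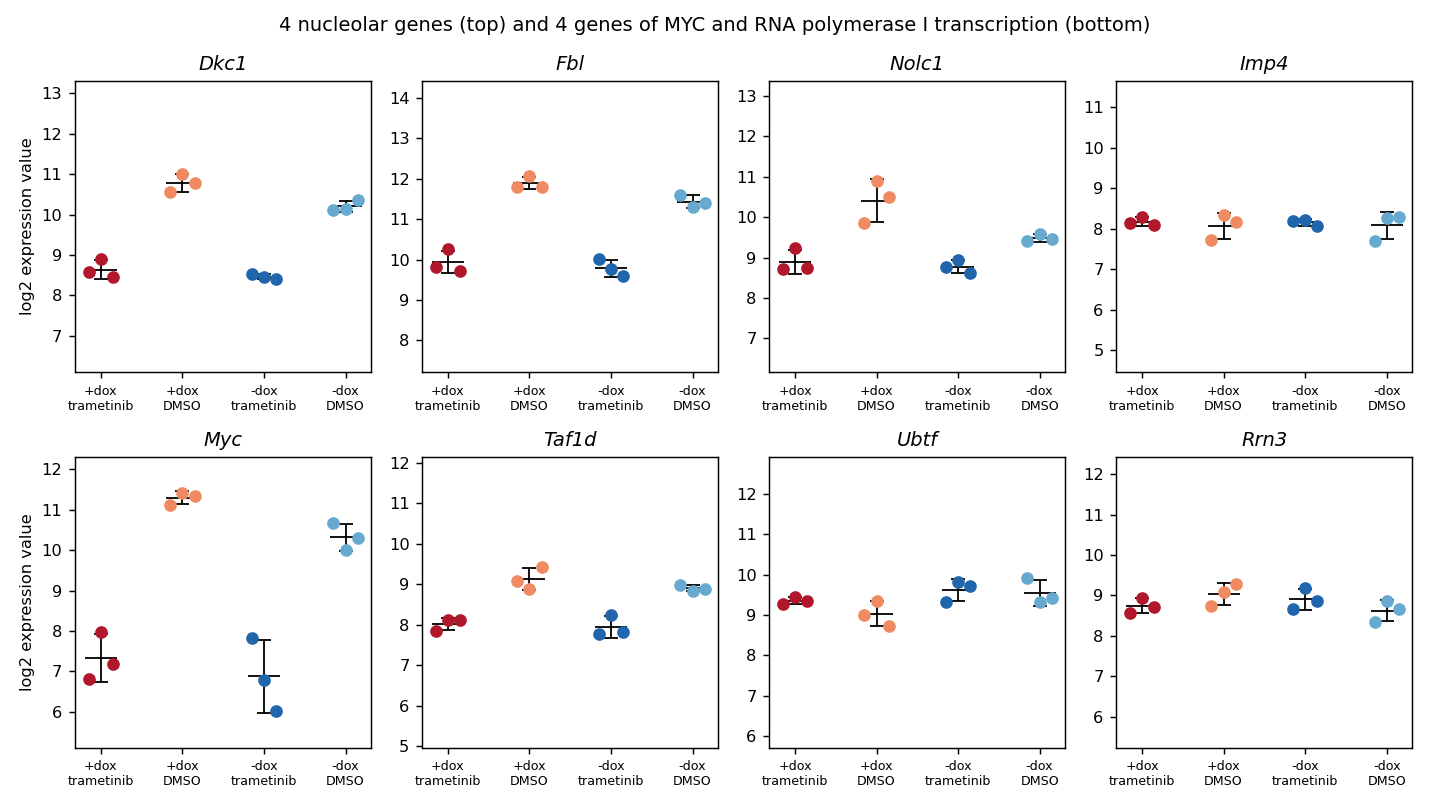
Log2 expression values of 8 genes on each array (points, replicates 1 to 3 from left to right) with the mean and SD of each group (bar and whiskers, n = 3); every panel spans the same range of log2 units. Dkc1, Fbl and Nolc1 are low in both trametinib groups, Imp4 is near 8 in all 4 groups, Myc and Taf1d are low in both trametinib groups, and Ubtf and Rrn3 overlap between groups.

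The 6 abundant nucleolar proteins and regulators all fell in +dox cells, and all but Ddx21 fell in -dox cells. Ncl (nucleolin) was 11.99, 11.95 and 11.97 in +dox trametinib cells, against 12.98, 12.93 and 12.83 in +dox DMSO cells. In -dox cells it was 12, 11.85 and 12.01 with trametinib, against 12.94, 12.64 and 12.67 with DMSO. These were falls of 0.94 ± 0.10 (adjusted p = 7.6e-05) and 0.80 ± 0.10 (adjusted p = 0.00032) on the log2 scale.

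Npm1 (nucleophosmin), a histone and ribosomal protein chaperone, moved less: 12.93, 12.80 and 13.06 in +dox trametinib cells, against 13.49, 13.24 and 13.39 in +dox DMSO cells. It was 12.71, 12.55 and 12.60 in -dox trametinib cells and 13.19, 13.17 and 13.19 in -dox DMSO cells. The arrays did not overlap, and the changes were −0.44 ± 0.10 (adjusted p = 0.0064) and −0.56 ± 0.10 (adjusted p = 0.0021). Npm1 and Bms1 were the members that fell in both populations with the larger change in -dox cells, and neither difference between the responses passed the test (adjusted p = 0.81 and 0.93).

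Nolc1, which chaperones snoRNPs on their way to the nucleolus, was 8.72, 9.24 and 8.74 in +dox trametinib cells and 9.85, 10.89 and 10.49 in +dox DMSO cells. The -dox values were 8.77, 8.94 and 8.62 with trametinib and 9.40, 9.59 and 9.47 with DMSO. The changes were −1.51 ± 0.23 (adjusted p = 0.00065) and −0.71 ± 0.23 (adjusted p = 0.047).

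Gnl3 (nucleostemin), a nucleolar GTPase of stem and tumour cells, was 9.08, 9.37 and 8.93 in +dox trametinib cells and 10.55, 11.08 and 11.09 in +dox DMSO cells. In -dox cells it was 9.16, 9.19 and 8.99 with trametinib and 10.10, 10.03 and 9.95 with DMSO. Gnl3 was thus 3.43-fold lower in +dox (adjusted p = 2.6e-05) and 1.88-fold lower in -dox cells (adjusted p = 0.0018).

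Mybbp1a, a MYB-binding protein of the nucleolus, was 10, 10.08 and 10.08 in +dox trametinib cells and 11.38, 11.75 and 11.50 in +dox DMSO cells. It was 10.23, 10.06 and 9.97 in -dox trametinib cells and 11.33, 10.95 and 11.12 in -dox DMSO cells, with changes of −1.49 ± 0.13 (adjusted p = 2.2e-05) and −1.05 ± 0.13 (adjusted p = 0.00025). The RNA helicase Ddx21 fell by 1.21 in +dox cells and had a change of −0.31 in -dox cells (adjusted p = 0.31).

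Small subunit assembly was the most mixed group. Of its 13 genes, 10 fell in +dox cells with a median over the group of −0.87, and 4 fell in -dox cells with a median of −0.31. The 4 were Utp20, Wdr43, Bms1 and Tsr1, which fell in both. Utp18, Imp4 and Ltv1 did not pass the test in either population, and Ltv1 was close to it in +dox cells at −0.62 ± 0.21 (adjusted p = 0.053, and 0.023 with the replicate number as a block).

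Tsr1, a GTPase-like factor of late small subunit maturation, had the largest fall of this group. It was 8.49, 8.57 and 8.17 in +dox trametinib cells, against 10.03, 10.11 and 10.33 in +dox DMSO cells. Its -dox values were 8.73, 8.71 and 8.57 with trametinib, against 9.78, 9.37 and 9.42 with DMSO. The changes were −1.75 ± 0.14 (adjusted p = 1.8e-05) and −0.85 ± 0.14 (adjusted p = 0.0015).

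Wdr43, a protein of the small subunit processome, the particle that first forms on the precursor RNA, was 8.59, 8.75 and 8.71 in +dox trametinib cells and 9.65, 10.10 and 9.96 in +dox DMSO cells. In -dox cells it was 8.72, 8.49 and 8.65 with trametinib and 9.17, 9.13 and 9.15 with DMSO. Its falls were 1.22 ± 0.12 (adjusted p = 4.4e-05) and 0.53 ± 0.12 (adjusted p = 0.0081) on the log2 scale.

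Utp20, of the same particle, was 8.65, 8.84 and 8.43 in +dox trametinib cells and 9.47, 10.02 and 9.70 in +dox DMSO cells. It was 8.38, 8.85 and 8.66 in -dox trametinib cells and 9.42, 9.39 and 9.43 in -dox DMSO cells, with changes of −1.09 ± 0.16 (adjusted p = 0.00055) and −0.78 ± 0.16 (adjusted p = 0.0052). No trametinib array reached a DMSO array of the same population.

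Utp18, also of the processome, was 9.52, 9.44 and 9.05 in +dox trametinib cells, against 9.19, 9.67 and 9.64 in +dox DMSO cells, which overlapped (−0.16 ± 0.17, adjusted p = 0.58). Among -dox arrays it was 9.28, 8.99 and 8.88 with trametinib, all above the 8.45, 8.72 and 8.73 with DMSO, at 0.42 ± 0.17 (adjusted p = 0.11). With arrays centred on their median the -dox change of Utp18 was 0.55 (adjusted p = 0.027).

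Imp4, a processome protein with an RNA-binding Brix domain, had the smallest change of the 41 genes in +dox cells. Its values were 8.13, 8.30 and 8.09 in +dox trametinib cells, against 7.71, 8.34 and 8.17 in +dox DMSO cells. In -dox cells they were 8.19, 8.22 and 8.06 with trametinib, against 7.69, 8.27 and 8.28 with DMSO. All groups overlapped, and the changes were 0.10 ± 0.18 (adjusted p = 0.77) and 0.08 ± 0.18 (adjusted p = 0.82).

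Of the other members of this group, Wdr75, Heatr1, Nop14, Noc4l, Rrp9 and Rrp12 fell in +dox cells, by 0.50 (Noc4l) to 1.30 (Rrp12), but in -dox cells none of these 6 was called. Rrp12 overlapped between its +dox groups. Bms1 changed by −0.48 in +dox and −0.55 in -dox cells.

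Large subunit assembly held 11 genes, of which 10 fell in +dox cells (median −0.97) and 7 in -dox cells (median −0.40). The exception in +dox cells was Bop1, at −0.15 ± 0.20 (adjusted p = 0.66). Bop1 forms a complex with Pes1 and Wdr12 that is needed to process the large subunit RNA. Of these partners Wdr12 fell, and Pes1 fell by its brighter probe set but not by its dimmer one.

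Wdr12 was 6.79, 7.11 and 6.79 in +dox trametinib cells, against 8.73, 9.20 and 8.95 in +dox DMSO cells. In -dox cells it was 7.28, 7.14 and 6.56 with trametinib, against 8.18, 8.63 and 8.61 with DMSO. Wdr12 was 4.18-fold lower in +dox (adjusted p = 4.7e-05) and 2.79-fold lower in -dox cells (adjusted p = 0.0005). Pes1 changed by −0.95 ± 0.11 (adjusted p = 0.00013) and −0.39 ± 0.11 (adjusted p = 0.026) by its brighter probe set, while its dimmer probe set rose by 1.40 and 1.12.

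Nop16, a nucleolar protein of early large subunit particles, was 7.94, 8.13 and 8.02 in +dox trametinib cells, against 9.96, 10.2 and 10.03 in +dox DMSO cells. For -dox cells the values were 7.86, 8.09 and 7.73 with trametinib, against 9.09, 9.44 and 9.36 with DMSO. Nop16 was 4.09-fold lower in +dox (adjusted p = 5.2e-06) and 2.65-fold lower in -dox cells (adjusted p = 5.6e-05).

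Nip7, which acts on both subunits' precursors, passed the test in +dox cells and not in -dox cells. It was 8.97, 9.02 and 8.77 in +dox trametinib cells, all below the 9.37, 9.89 and 9.81 of +dox DMSO cells (−0.77 ± 0.14, adjusted p = 0.0018). In -dox cells it was 9.12, 9.04 and 8.90 with trametinib and 8.93, 9.10 and 9.11 with DMSO, which overlapped (−0.03 ± 0.14, adjusted p = 0.92). The difference between these responses did not pass the test (−0.74 ± 0.20, adjusted p = 0.16).

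Noc2l, Rrp1b, the RNA methyltransferase Nop2 and Ebna1bp2 fell in both populations, by 0.97 to 1.72 in +dox and by 0.40 to 1.16 in -dox cells. Rrs1 and Noc3l fell in +dox cells by 0.61 and 0.68, and neither was called in -dox cells.

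**Figure D3:**
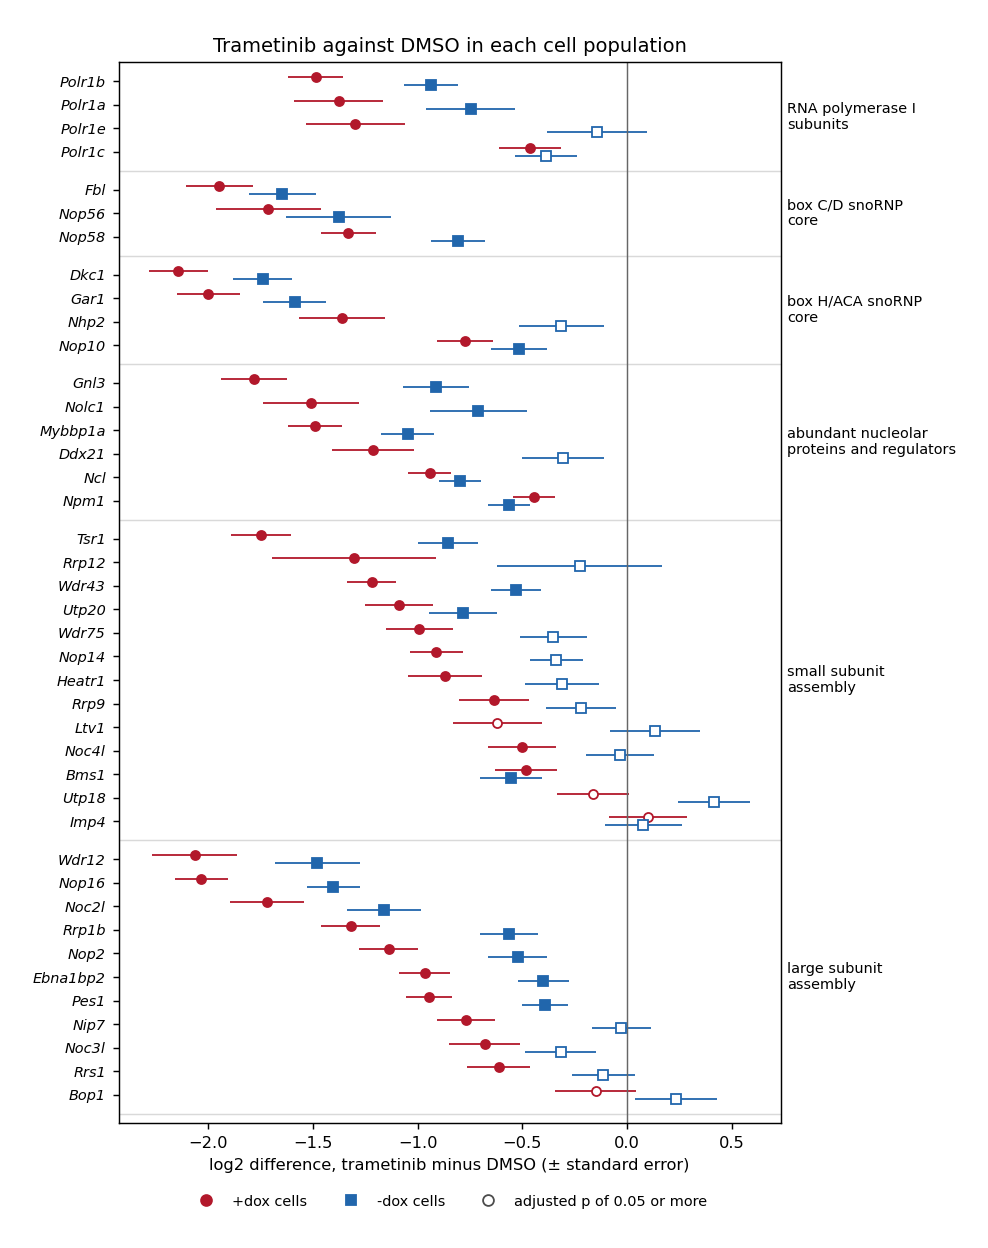
Log2 difference of trametinib minus DMSO for each of the 41 genes, in +dox cells (red circles) and -dox cells (blue squares), with the standard error of the fit; open symbols have an adjusted p of 0.05 or more. The red circles lie left of the blue squares in all but 3 genes (Npm1, Bms1 and Imp4), and Dkc1 is farthest left in both.

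Whether the response differed between +dox and -dox cells was tested directly, as the +dox change minus the -dox change. None of the 41 genes passed (limma, 0 rose and 0 fell), where 0.258% of all genes rose and 0.0715% fell. At an unadjusted p under 0.05, the change was lower in +dox than in -dox cells in 23 of the 41 genes, against 5.73% of all genes. The difference was below 0 in 38 of the 41 genes, against 53.8% of all genes, and its median was −0.56 over the members and −0.023 over all genes. The smallest p-values were those of Tsr1 (−0.89 ± 0.20, adjusted p = 0.11) and Wdr43 (−0.69 ± 0.17, adjusted p = 0.13).

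This count depended on the settings. With the replicate number as a block, Nhp2 passed (−1.05, adjusted p = 0.049). Without +dox DMSO replicate 1, Gnl3, Nip7, Nop14 and Wdr43 passed, and without -dox DMSO replicate 1, Rrp1b and Tsr1 did. With arrays weighted by quality 12 members passed, all with a lower change in +dox than in -dox cells. That fit also called many more of all genes in both directions than the main fit, with counts given at the end. The weights, used here and in later counts, ran from 0.20 for -dox DMSO replicate 1 to 6.98 for -dox DMSO replicate 3. The -dox DMSO mean therefore rested mostly on replicate 3 in that fit.

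Under DMSO, the program was higher in +dox than in -dox cells. Of the 41 genes 14 rose and 0 fell, where 2.87% of all genes rose and 3.28% fell. The median log2 difference was 0.52 over the members and 0.013 over all genes, the difference was above 0 in 40 of 41 genes against 53.0% of all, and 30 had no overlap between the higher +dox DMSO and the -dox DMSO arrays, as in 11.3% of all genes. With a fold over 2 as well 0 of the 41 rose, against 1.1% of all genes. These +dox DMSO and -dox DMSO arrays are also those against which the trametinib changes above were taken.

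The 14 genes came from 5 of the 6 role groups, and with the replicate number as a block all 6 held a gene that passed. They were Nop58 of box C/D, Dkc1 and Nhp2 of box H/ACA, the nucleolar proteins Nolc1, Gnl3 and Ddx21, the small subunit factors Utp18, Wdr43 and Tsr1, and the large subunit factors Ebna1bp2, Rrs1, Nop2, Nop16 and Nip7. No RNA polymerase I subunit passed, with the largest difference in Polr1e, at 0.80 ± 0.24 (adjusted p = 0.077), which did pass with the block (adjusted p = 0.032). Gar1 missed the threshold at 0.56 ± 0.15 (adjusted p = 0.051, and 0.022 with the replicate number as a block).

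The 3 largest rises among the genes that passed the test were those of Nolc1, Gnl3 and Utp18. Nolc1, at 9.85, 10.89 and 10.49 in +dox DMSO cells and 9.40, 9.59 and 9.47 in -dox DMSO cells, was 1.90-fold higher (adjusted p = 0.039). Gnl3, at 10.55, 11.08 and 11.09 in +dox DMSO cells against 10.10, 10.03 and 9.95 in -dox DMSO cells, was 1.84-fold higher (adjusted p = 0.0087). Utp18 was 1.82-fold higher in +dox cells (adjusted p = 0.015), although it did not change with trametinib by the test.

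This count rested on few arrays. It was 3 when either replicate 2 or replicate 3 of the +dox DMSO group was left out, 5 with replicate 3 and 7 with replicate 2 of the -dox DMSO group left out, and 9 with replicate 1 of +dox trametinib or replicate 2 of -dox trametinib left out, which enter through the shared estimate of the spread. The median over the members stayed between 0.44 and 0.65 over the 12 fits that left out 1 array, and the number of all genes that rose ranged from 204 to 638. With only the 6 DMSO arrays in the fit, 7 genes rose.

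Under trametinib, no member differed between +dox and -dox cells by the test. Of the 41 genes 0 rose and 0 fell (limma), where 1.95% of all genes rose and 1.42% fell. At an unadjusted p under 0.05, Polr1c and Npm1 were higher in +dox cells and Polr1a and Rrp1b lower, which are 2 genes each way, against 7.62% and 6.81% of all genes. The median was −0.007 over the members and −0.017 over all genes, and the values ran from −0.53 ± 0.21 for Polr1a (adjusted p = 0.26) to 0.42 ± 0.15 for Polr1c (adjusted p = 0.18). With arrays weighted by quality, and without -dox trametinib replicate 1, Polr1c rose and Polr1a fell, and without -dox DMSO replicate 1 Rrp1b fell.

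**Figure D4:**
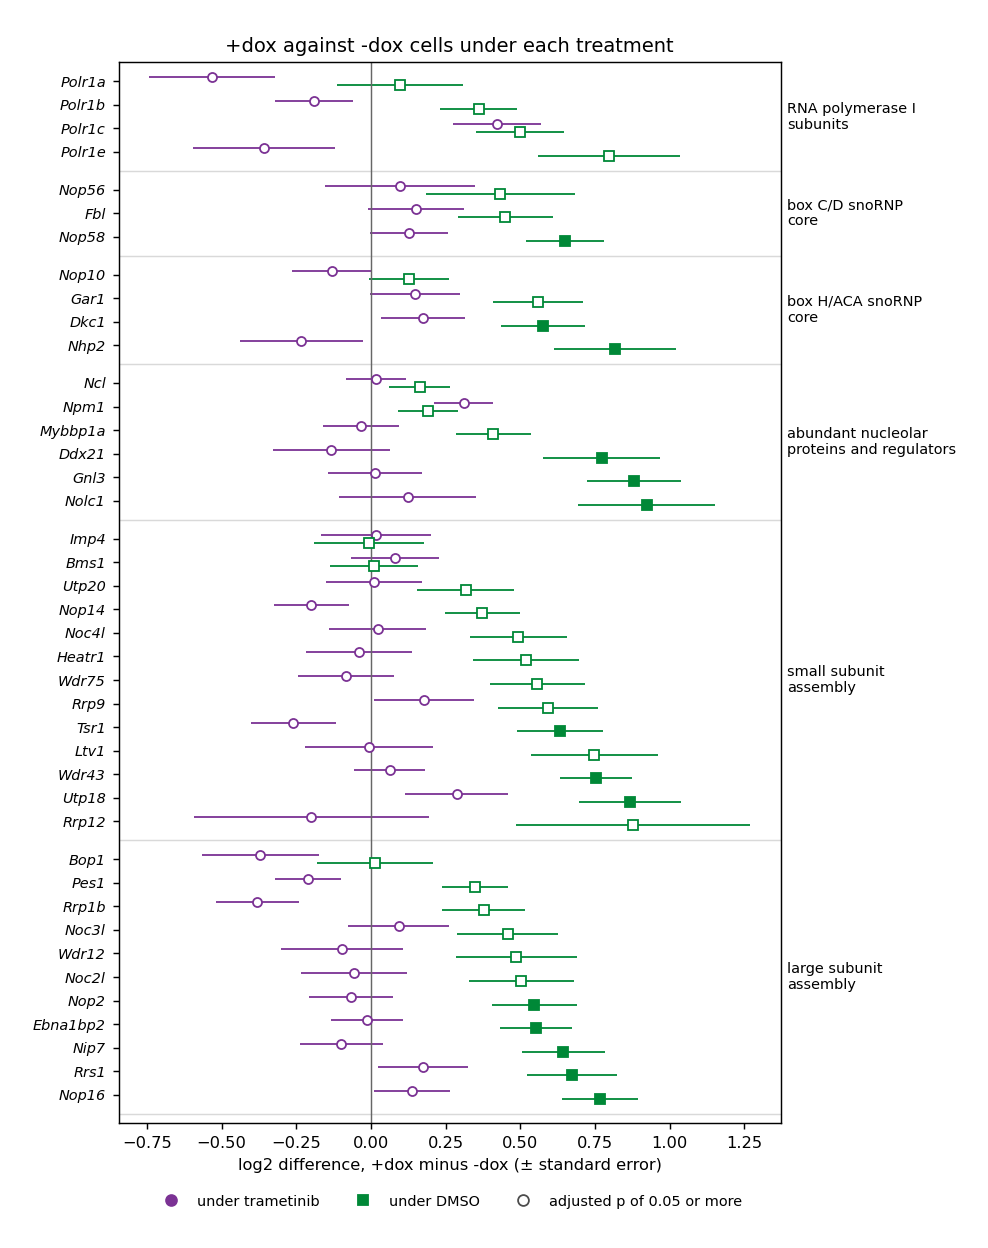
Log2 difference of +dox minus -dox cells for each of the 41 genes, under trametinib (purple circles) and under DMSO (green squares), with the standard error of the fit; open symbols have an adjusted p of 0.05 or more. The green squares lie right of 0 in all genes but Imp4, the 14 filled ones from 0.55 to 0.92, while the purple circles lie on both sides of 0 and none is filled.

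Many members had further probe sets. Of the 87 probe sets of the 41 genes, 78 were above the level of 4.87, and 37 of these were not the one that stands for its gene. Fitted one by one among all probe sets, 22 of the 37 fell and 1 rose with trametinib in +dox cells, and 13 fell and 1 rose in -dox cells. The riser in both was the dimmer probe set of Pes1. Under DMSO, 7 of the 37 were higher in +dox cells and 0 lower. The share of all probe sets called in that fit is not given here, so these counts stand without a background.

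Other ribosome assembly genes, taken from a list of factors outside the 41, moved the same way. Of 42 other small subunit factors, 29 fell and 0 rose with trametinib in +dox cells (median −0.61), and 17 fell and 3 rose in -dox cells (median −0.25). Utp14a, a processome protein, changed by −1.66 (adjusted p = 8.9e-06) and Wdr36, of the same particle, by −1.48 (adjusted p = 2.6e-05) in +dox cells. In -dox cells Imp3, a partner of Imp4, changed by −1.14 (adjusted p = 0.00019), whereas Pno1, a late small subunit factor, and the helicase Dhx37 rose by 0.99 (adjusted p = 0.036) and 0.71 (adjusted p = 0.012). Dhx37 was near the level of 4.87, with group means from 4.70 to 5.48.

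Of 38 other large subunit factors, 29 fell and 0 rose in +dox cells (median −0.78), and 13 fell and 0 rose in -dox cells (median −0.28). Ppan changed by −1.84 (adjusted p = 5.5e-05) and −1.22 (adjusted p = 0.0009), and Mdn1 (midasin), the giant ATPase that strips factors from the maturing large subunit, by −1.71 and −1.03. Of the 11 exosome genes, which trim precursor RNA, 9 fell in +dox and 5 in -dox cells, among them the nuclease Dis3 at −1.14 and −0.59. Under DMSO, 10 of the small subunit factors, 8 of the large subunit factors and Dis3 were higher in +dox than in -dox cells and 0 lower. Nmd3, the export adaptor of the large subunit, had the largest of these differences in the large subunit list, at 0.83 ± 0.11 (adjusted p = 0.002).

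In +dox cells, cytosolic ribosomal protein genes had a smaller median change than the other assembly factors, whereas in -dox cells the medians were close. Of 44 cytosolic ribosomal protein genes, 19 fell and 0 rose in +dox cells (median −0.21), and 23 fell and 0 rose in -dox cells (median −0.30). Rpl12 (−2.28 and −1.81), Rps25 (−1.14 and −1.18) and Rpl14 (−1.08 and −1.02) were the 3 with a fold over 2 in +dox cells. In -dox DMSO cells replicate 1 lay above replicates 2 and 3 in Rpl12 (9.35 against 8.11 and 8.2) and Rps25 (10.32 against 9.23 and 9.26). None of the 44 passed the test for +dox against -dox cells under DMSO, where 1 was higher at an unadjusted p under 0.05. Of 75 mitochondrial ribosomal protein genes, 28 fell and 2 rose in +dox cells, and 16 fell and 7 rose in -dox cells.

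Other RNA polymerase genes were called in shares nearer to those of all genes (12.5% for falls among +dox and 10.8% among -dox arrays). Among 11 other RNA polymerase I genes, 2 (18.2%) fell in +dox cells, Taf1d and Twistnb, and Taf1d alone (9.09%) fell in -dox cells. Taf1d, a subunit of the promoter selectivity factor, was 7.85, 8.11 and 8.11 in +dox trametinib cells, against 9.08, 8.89 and 9.43 in +dox DMSO cells (−1.11 ± 0.16, adjusted p = 0.00048). The upstream binding factor Ubtf was 9.28, 9.45 and 9.35 in +dox trametinib cells, against 9.01, 9.36 and 8.74 in +dox DMSO cells (0.32 ± 0.20, adjusted p = 0.28), and the initiation factor Rrn3 had a change of −0.29 ± 0.19 (adjusted p = 0.32). Of 10 RNA polymerase II subunits 2 (20.0%) fell and 0 rose in +dox cells, and 1 fell and 0 rose in -dox cells. Of 13 RNA polymerase III genes 3 (23.1%) fell and 0 rose in +dox cells, and 2 fell and 2 rose in -dox cells.

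Myc fell further than any member. It was 6.82, 7.98 and 7.19 in +dox trametinib cells, against 11.12, 11.42 and 11.35 in +dox DMSO cells, a change of −3.97 ± 0.40 (adjusted p = 5.7e-05). The -dox values of Myc were 7.83, 6.78 and 6.02 with trametinib, against 10.67, 10 and 10.29 with DMSO, a change of −3.44 ± 0.40 (adjusted p = 0.00021). Myc did not pass the test for +dox against -dox cells, at 0.98 ± 0.40 under DMSO (adjusted p = 0.20) and 0.45 ± 0.40 under trametinib (adjusted p = 0.74). Max, the partner of MYC, rose with trametinib by 1.27 and 0.61, and Mxd4, a protein that competes for Max, by 1.68 and 1.04, in +dox and -dox cells. Of the 12 genes of the MYC network 2 rose and 1 fell in +dox cells, and 3 rose and 2 fell in -dox cells.

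Nucleotide and polyamine synthesis, which supplies growing cells, moved with the members. Of 16 genes 10 fell and 1 rose in +dox cells, and 9 fell and 2 rose in -dox cells. Cad, the first enzymes of pyrimidine synthesis in 1 protein, changed by −2.07 and −1.20, while Ppat, the entry enzyme of purine synthesis, rose by 1.03 and 1.17. Under DMSO, 5 of the 16 were higher in +dox cells, with Odc1 and Srm of polyamine synthesis at 1.08 (adjusted p = 0.032) and 1.04 (adjusted p = 0.0097).

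Cell cycle genes moved in the same arrays in another order. Of 14 ERK output genes 13 fell in each population. Under trametinib 6 of the 14 were higher in +dox than in -dox cells and 0 lower, against 1.95% and 1.42% of all genes. Their difference between the responses had a median of 0.45, and 0 of the 14 passed its test. All 22 mitosis genes fell in both populations, with a median of −1.89 in +dox and −2.69 in -dox cells, and 23 and 25 of 29 DNA replication genes fell, with medians of −1.31 and −1.65. The difference between the responses had a median of 0.80 for mitosis and 0.34 for DNA replication, above 0, where that of the members was −0.56, and 0 genes of either list passed its test. The mitosis mean relative to all 12 arrays was −0.69, 0.25 and −1.24 in +dox trametinib cells, so that replicate 2 of this group was high in mitosis genes and also highest of the 3 in the members (8.86). The part of cell cycle differences in the members' changes was not tested.

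**Figure D5:**
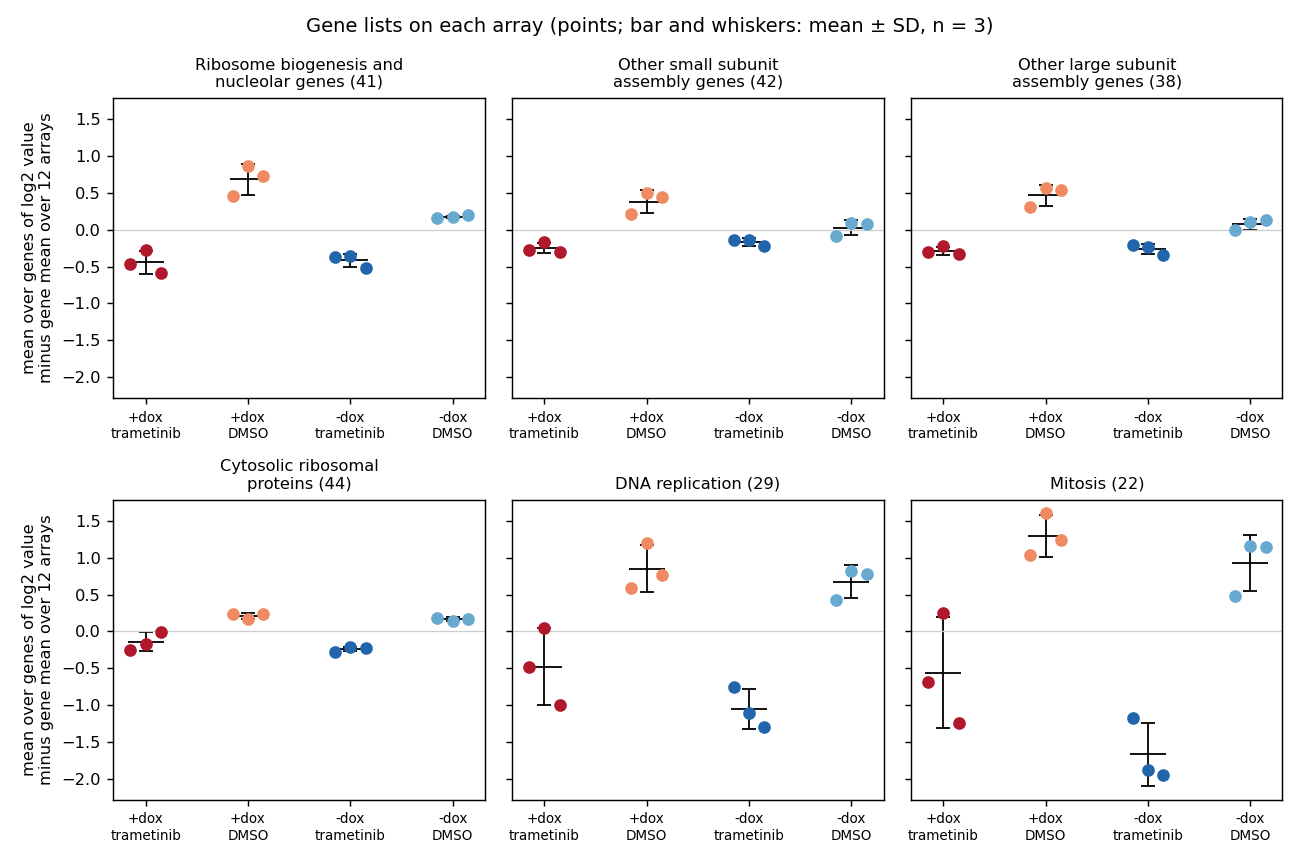
Mean over the genes of a list of the log2 value minus the gene mean over the 12 arrays, for each array (points) with the group mean and SD (bar and whiskers, n = 3); the number of genes is in the panel title. The members and the other assembly factors are highest in +dox DMSO cells and alike in both trametinib groups, while mitosis and DNA replication genes are lowest in -dox trametinib cells.

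Markers of other cell types moved with doxycycline and with trametinib as well. Of 8 fibroblast markers 4 were above the level of 4.87 in every group, and their summed log2 mean over all 8 was 48.7 in +dox trametinib, 42.6 in +dox DMSO, 54.2 in -dox trametinib and 52.4 in -dox DMSO cells. Dcn and Col1a1 rose with trametinib, by 3.33 and 1.94 in +dox (adjusted p = 0.00016 and 0.00073) and by 1.45 and 1.37 in -dox cells (adjusted p = 0.025 and 0.0073), and under DMSO they were lower in +dox cells (−2.23 and −2.30). Pdgfra and Pdgfrb, also above the level in every group, did not rise with trametinib by the test. Pdgfra changed by −0.09 in +dox (adjusted p = 0.88 by limma) and −0.96 in -dox cells (adjusted p = 0.03). Pdgfrb changed by 0.19 (adjusted p = 0.86) and −1.02 (adjusted p = 0.2), and under DMSO both were lower in +dox cells (−2.07 and −2.40). Of 9 leukocyte markers 3 or 4 were above it in each group, with sums of 45.8, 44.7, 40.7 and 39.6, while the defining marker Ptprc was below it in all 4 groups (2.90, 2.81, 2.84 and 2.95). Cd3g was at 9.01 in +dox trametinib, 4.83 in +dox DMSO, 3.48 in -dox trametinib and 3.35 in -dox DMSO cells. Itgam, at 3.72 ± 0.12 in +dox trametinib, 5.60 ± 1.36 in +dox DMSO, 3.25 ± 0.06 in -dox trametinib and 3.15 ± 0.16 in -dox DMSO cells (SD, n = 3 each), fell with trametinib in +dox cells (−1.88, adjusted p = 0.013 by limma) and was higher in +dox than in -dox cells under DMSO (2.46, adjusted p = 0.014), the directions in which the members moved. Itgam was above the level in +dox DMSO cells alone, and in -dox cells it did not change with trametinib by the test (0.10, adjusted p = 0.91 by limma). Cd3g rose with trametinib in +dox cells (4.18), opposite to the members, and was higher in +dox cells under DMSO (1.47), as they were. The part of these marker differences in the members' changes was not tested. The difference of Gapdh probe sets for the 3′ and 5′ ends of the RNA, a sign of degradation, ran from −0.25 to −0.16 in +dox trametinib, −0.17 to −0.12 in +dox DMSO, −0.19 to −0.13 in -dox trametinib and −0.19 to −0.10 in -dox DMSO cells. For Actb it ran from 0.06 to 0.15 in +dox trametinib and 0.09 to 0.15 in +dox DMSO cells. In -dox cells it ran from 0.06 to 0.1 with trametinib and 0.12 to 0.31 with DMSO. The 0.31 was that of -dox DMSO replicate 1, the array that stood apart from its group.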

How the data were processed

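RNA was measured on Affymetrix mouse genome arrays. The deposited values, log2 intensities per probe set, were made by the authors with RMA (Chipster software) and used as given; the table holds no detection calls. Of 45101 probe sets, 64 controls, 932 with several genes and 9160 with no gene listed were left out. The highest mean over the 12 arrays chose 1 probe set per gene, which gave 18193 genes. Low values were not filtered out.

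A single fit of 4 group means was made with lmFit and eBayes of limma 3.58.1 (R 4.3.3), with Benjamini-Hochberg adjustment over the 18193 genes and a threshold of 0.05. The script was tested on simulated data. The members and all gene lists were chosen with earlier results of these data known, so no list was tested as a whole. Named members were those with the largest and smallest changes in each comparison, those with the smallest p-values for a difference in response, 2 or more per role group, and Fbl, Ncl, Npm1 and Nop56.

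Deviations from the group mean correlated between arrays of the same number, with 0.17 to 0.34 for +dox against -dox cells under DMSO, 0.21 to 0.29 under trametinib and 0.16 to 0.45 for trametinib in +dox cells, and were read as a pairing there. They were 0.02 to 0.46 for trametinib in -dox cells. The main fit had no term for the replicate number, so its counts and p-values are unpaired. Alternatives were the replicate number as a block, the compared groups' arrays alone, averaged probe sets, genes above background alone, further quantile normalization, median centring, array weights, a trended and robust eBayes, a threshold of 0.01, leaving out each array and, added after the data were seen, every probe set fitted on its own. The number of arrays limits the precision.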

Additional observations from a re-analysis of the deposited data

How the results depend on the processing

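The falls with trametinib kept their direction and number under most settings. Leaving out each array in turn, 32 to 38 of the 41 genes fell in +dox cells (median −1.30 to −0.99) and 18 to 25 in -dox cells (median −0.54 to −0.46). At an adjusted p under 0.01, 30 fell in +dox and 16 in -dox cells, against 1462 and 1150 of all 18193 genes. The 14 genes that were higher in +dox than in -dox cells under DMSO became 7 with only the arrays of the compared groups, 24 with arrays centred on their median, 32 with arrays weighted by quality and 3 at an adjusted p under 0.01, and 3 to 19 when 1 array was left out (median 0.44 to 0.65). Array weights also raised the calls over all genes under DMSO in both directions, with counts given below. Under trametinib, array weights gave 1 gene that rose and 1 that fell, and leaving out 1 array 0 to 1 each way (median −0.09 to 0.087). For the difference between the responses, 5 genes were lower with centring (Nip7, Nop16, Pes1, Tsr1 and Wdr43, median −0.74), 12 with array weights, and 0 to 4 without 1 array (median −0.67 to −0.47). In -dox cells 1 gene rose with trametinib under centring (Utp18) and 1 with the probe sets of each gene averaged (Pes1). With that average, Pes1 reversed to 0.23 (adjusted p = 0.18) in +dox and 0.36 (adjusted p = 0.038) in -dox cells, since its dimmer probe set, which moved the other way, then counts equally. The background level was 4.61 at the 90th percentile and 5.42 at the 99th percentile. The cause of the other changes was not tested.

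With the replicate number as a block (replicate block), 19 genes were higher in +dox cells under DMSO, gaining Polr1e, Gar1, Wdr75, Heatr1 and Ltv1, 38 fell with trametinib in +dox cells, gaining Ltv1, 24 fell in -dox cells, and 1 had a lower difference between the responses (Nhp2); of the other named genes Polr3b lost its call in +dox cells (adjusted p = 0.068).

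Centring moved the median of all genes to 0.11 for +dox against -dox cells under DMSO, −0.11 under trametinib, −0.027 for trametinib in +dox and 0.19 in -dox cells, while the members' median minus that of all genes stayed at 0.51, 0.01, −1.16 and −0.58. Counts over all genes moved as well. Under DMSO, 522 genes rose and 596 fell, against 1148 rising with centring, 1719 and 2367 with array weights, 248 and 302 with the compared arrays alone and 174 and 192 at an adjusted p under 0.01. Under trametinib, 355 rose and 259 fell, against 389 falling with the block, 425 with centring, 830 and 597 with array weights and 159 and 89 at the stricter threshold. For trametinib in +dox cells 2503 rose and 2269 fell, against 1628 and 1462 at the stricter threshold. In -dox cells 2113 rose and 1959 fell, against 4193 rising with centring, 3496 and 3635 with array weights and 1080 and 1150 at the stricter threshold. For the difference, 47 were higher and 13 lower, against 85 and 56 with the block, 168 lower with centring, 680 and 386 with array weights and 9 and 2 at the stricter threshold.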
